A study of Mus musculus with 4 samples.

Results

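The genes described here are 10 genes of adipocytes and lipid droplets, taken by GENCODE symbol from the 55401 genes of the deposited count files: Adipoq, Plin1, Plin2, Plin4, Plin5, Pparg, Cidec, Cfd, Lipe and Pnpla2. All 10 were found. Of these, 9 had enough counts to be tested among 13533 tested genes, and Plin1 did not. Poly(A) RNA came from the semimembranosus, which lies at the back of the thigh, in 8-week-old C57BL/6 animals. In every mouse the left external iliac vein had been tied over a 30-gauge needle to narrow it. The IVS_diosmin group (2 libraries) had iliac vein stenosis and received diosmin, a plant flavonoid taken as a vein-active drug, by gavage at 40 mg per kg per day. The IVS group (2 libraries) had the same stenosis and received saline by gavage. The comparison asks how muscle RNA differs with diosmin when the vein is narrowed, and there was no unoperated group. Whether replicates are separate animals is not stated, so the spread between them may be technical.

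Adipocytes store triglyceride in a single large droplet whose surface is coated by perilipins, and the nuclear receptor PPARG switches on most of the genes that make a fat cell. Muscle fibres hold many small droplets that feed mitochondria, coated by other perilipins. In both cell types triglyceride is broken down in steps, first by the lipase encoded by Pnpla2 and then by the lipase encoded by Lipe. Fat cells also lie between muscle bundles and along nerves, so a piece of muscle can carry more or less of them.

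Levels are TMM-normalised CPM (counts per gene scaled to a common library size). A gene was called changed at an edgeR quasi-likelihood adjusted p under 0.05. None of the 10 genes changed by that rule (0 of 9 tested), where 2.96% of all tested genes did, 1.17% higher and 1.78% lower. At an unadjusted p under 0.05, 3 of 9 passed (Cidec, Pparg and Plin4), all lower with diosmin, beside 16.8% of all tested genes in either direction, 7.91% higher and 8.91% lower. Both IVS_diosmin libraries lay below both IVS libraries for 3 members (Cidec, Pparg and Plin4) and above them for 2 (Plin5 and Pnpla2), beside 24.1% and 23.4% of all tested genes. DESeq2 called 1 gene, Pparg (adjusted p = 0.0151), against 4.53% of all tested genes. The median log2 fold change of the 9 tested genes was -0.55, and 6 of 9 were below 0, while over all tested genes the median was 0.0064 and 49.5% were below 0. That median was 0.11 without IVS replicate 2 (10 tested, 4 below 0), -0.25 without IVS_diosmin replicate 1 (5 of 10 below 0) and -0.91 without IVS replicate 1 (8 of 10 below 0). Without IVS replicate 1 the log2 fold changes of Pparg, Cidec and Cfd were -2.27, -3.70 and -1.47. Without IVS replicate 2 they were -1.28, -2.19 and 0.028. In counts from bulk tissue, fewer cells of a type and less RNA per cell cannot be told apart.

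Gene counts per library ran from 13056650 to 15324354. Muscle fibre RNA was plain in every library, with 8 fibre genes (Acta1, Ckm, Myh4, Tnnt3, Mylpf, Pvalb, Ttn and Mb) summing to 91023 to 101280 CPM in the 4 libraries. Markers of slow fibres differed between the groups, with 8 of them summing to 3494 and 1381 CPM in IVS_diosmin replicates 1 and 2. Their sums were 45.3 and 47.9 CPM in IVS, and 7 of 8 were called higher, beside 1.17% of all tested genes. The part of fibre type in the results below was not tested. IVS replicate 2 stood apart by its nerve genes: 5 Schwann cell and myelin markers summed to 45.6 and 76.2 CPM in IVS_diosmin replicates 1 and 2, against 27.96 and 171 CPM in IVS replicates 1 and 2. None of these 5 markers was at 0 in any library. Several signs of RNA quality or makeup differed between the groups, in both directions. CT010467.1, a locus annotated as rRNA, took 1.16% and 0.936% of gene counts in IVS_diosmin libraries and 4.14% and 3.80% in IVS libraries, and Rn7sk stood at 11.9 and 5.97 CPM with diosmin, against 34.6 and 33.5 CPM in IVS. Lars2, another of these signs, stood at 584 and 522 CPM with diosmin, against 2006 and 1866 CPM in IVS. Neat1, a nuclear RNA, stood at 4971 and 3211 CPM with diosmin, against 2583 and 2299 CPM in IVS, while Malat1, another, overlapped. Of these 4 genes (Rn7sk, Lars2, Neat1 and Malat1), 2 were called lower, Rn7sk and Lars2, and 0 higher. Over all tested genes the shares were 1.78% and 1.17%. Mitochondrially encoded genes took 45.0% and 40.7% of gene counts with diosmin, against 31.5% and 38.5% in IVS, and reads without a unique position made up 45.6% and 43.6% of reads with diosmin, against 37.7% and 38.8% in IVS. Their part in the results below was not tested.

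The promoters of the 3 members with an unadjusted p under 0.05 are shown first, with a start of Plin5, whose fitted value had the opposite sign. Each is a window of 300 bases around a RefSeq transcription start (GRCm38.p6, the build that mm10 names), 5′ to 3′ on the gene's strand. Capitals mark matches, on either strand, to TTGCNNAA (the core bound by C/EBP factors of adipocyte differentiation), AGGTCA (a core bound by nuclear receptors such as PPARG) or CCAAT (the CCAAT box). Of the starts of Pparg and Cidec, those with TTGCNNAA are shown. The first 2 starts of Pparg, not shown, hold AGGTCA, as does Plin5.
Pparg, the third start, chr6:115421816-115422115, plus strand: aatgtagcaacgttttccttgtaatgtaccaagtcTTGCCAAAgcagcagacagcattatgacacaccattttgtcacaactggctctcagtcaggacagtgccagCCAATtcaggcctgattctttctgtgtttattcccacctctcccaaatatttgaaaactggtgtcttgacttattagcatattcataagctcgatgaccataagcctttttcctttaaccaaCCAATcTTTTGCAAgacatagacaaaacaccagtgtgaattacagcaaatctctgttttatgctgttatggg
Cidec, the downstream of 2 starts, chr6:113434715-113435014, minus strand: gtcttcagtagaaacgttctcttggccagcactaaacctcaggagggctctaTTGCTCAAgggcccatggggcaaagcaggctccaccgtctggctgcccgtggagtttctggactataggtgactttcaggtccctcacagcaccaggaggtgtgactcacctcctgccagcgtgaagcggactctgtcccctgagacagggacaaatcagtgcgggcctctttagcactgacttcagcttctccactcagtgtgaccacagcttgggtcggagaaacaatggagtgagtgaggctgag
Plin4, chr17:56109733-56110032, minus strand: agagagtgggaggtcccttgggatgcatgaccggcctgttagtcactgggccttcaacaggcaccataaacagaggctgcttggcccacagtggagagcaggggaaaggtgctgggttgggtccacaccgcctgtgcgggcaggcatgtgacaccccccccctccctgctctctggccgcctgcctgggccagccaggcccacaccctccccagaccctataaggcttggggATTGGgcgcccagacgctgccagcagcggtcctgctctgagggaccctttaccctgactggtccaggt
Plin5, chr17:56117499-56117798, minus strand: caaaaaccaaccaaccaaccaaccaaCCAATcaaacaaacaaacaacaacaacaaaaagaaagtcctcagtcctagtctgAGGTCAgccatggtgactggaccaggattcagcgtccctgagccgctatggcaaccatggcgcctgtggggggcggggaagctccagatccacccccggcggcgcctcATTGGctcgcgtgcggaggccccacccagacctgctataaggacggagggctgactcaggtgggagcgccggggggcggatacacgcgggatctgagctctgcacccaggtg

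The Pparg window held 2 matches to TTGCNNAA, at bases -215 to -208 and -16 to -9 from the start, and the Cidec window shown held 1, at -198 to -191. The other RefSeq start of Cidec, at the upstream window chr6:113435711-113436010, held no match to any motif searched. Plin1 was the only other member with this motif, with 2 matches in its window. It was present in 3 of the 15 windows that RefSeq lists for the 10 genes and in 10.8% of 32851 windows of all genes. AGGTCA was found in 5 of the 15 windows (Plin2, both starts of Plin5 and the first 2 starts of Pparg) and in 16.3% of all windows. CCAAT was found in 6 of 15 and in 37.4% of all. The PPAR response element, a direct repeat of AGGTCA that therefore overlaps it, was in none of the 15 windows and in 0.0396% of all. No match to TCACNCCAC, a sterol response element, was found in the 15 windows either (1.24% of all). The E-box CACGTG was in 2 of 15 (Plin2 and the upstream start of Lipe) and in 7.15% of all, and TATAAA was in 1 of 15 (the second start of Pparg) and in 13.6% of all. These are letter matches in short windows and not measured binding sites.

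**Figure D1:**
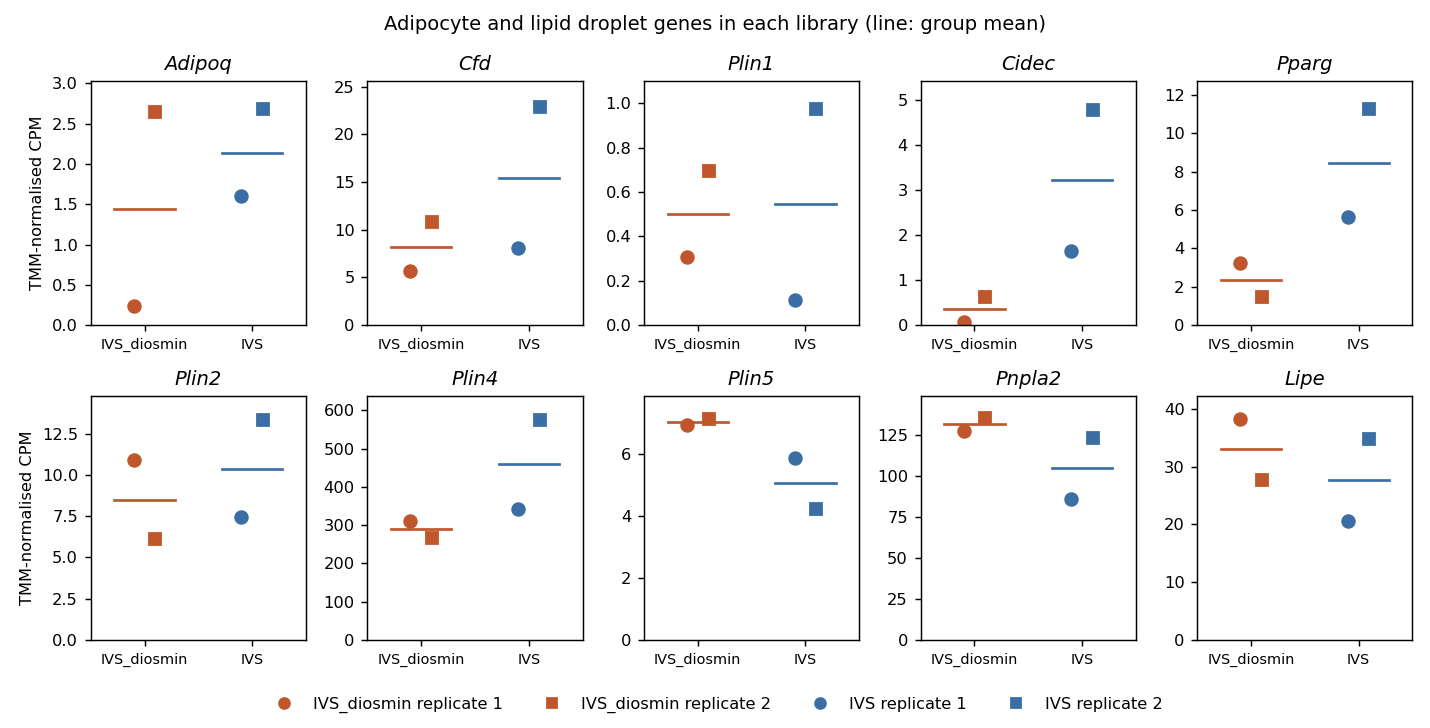
TMM-normalised CPM (vertical axes, each from 0) of the 10 genes in each of the 4 libraries, with IVS_diosmin at the left and IVS at the right of each panel, circles for replicate 1, squares for replicate 2 and a line at the group mean. Both IVS_diosmin libraries lie below both IVS libraries for Cidec, Pparg and Plin4 and above them for Plin5 and Pnpla2, and IVS replicate 2 is the highest library for 7 of the 10 genes.

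Among hormones and secreted proteins of fat cells, Adipoq encodes adiponectin, a hormone made by adipocytes (mm10 chromosome 16, 23146536 to 23158028, plus strand). It had 3 and 38 counts (0.231 and 2.64 CPM) in IVS_diosmin replicates 1 and 2, against 28 and 33 counts (1.60 and 2.68 CPM) in IVS replicates 1 and 2. The low library was IVS_diosmin replicate 1, while IVS_diosmin replicate 2 was level with IVS replicate 2, so the groups overlapped. Within IVS_diosmin, replicate 2 exceeded replicate 1 by a count ratio of 11.4 (95% exact conditional binomial interval 3.62 to 57.8), and within IVS by 1.68 (0.982 to 2.88). Such intervals cover counting error only. Between the groups the log2 fold change was -0.55 ± 0.85 (SE, 95% interval -2.45 to 1.35, adjusted p = 0.817). Without IVS_diosmin replicate 1 it was 0.31, so its direction rested on that library.

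Cfd encodes adipsin, a complement protease secreted by adipocytes (chromosome 10, 79890853 to 79892655, plus strand). Its level was 5.71 and 10.8 CPM in IVS_diosmin libraries and 8.06 and 22.8 CPM in IVS libraries. In each group replicate 2 was the higher library, and the groups overlapped. The replicates differed by a count ratio of 1.89 (1.42 to 2.52) in IVS_diosmin and of 2.83 (2.31 to 3.49) in IVS, both beyond counting error. The log2 fold change was -0.89 ± 0.53 (SE, 95% interval -2.15 to 0.37, adjusted p = 0.472). It became 0.028 without IVS replicate 2, and -1.47 without IVS replicate 1 (adjusted p = 0.0437, in a range of 0.0437 to 0.989 over 9 alternatives).

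Plin1 encodes the perilipin that coats the droplet of white adipocytes and holds lipases off it (chromosome 7, 79720218 to 79732903, minus strand). It had 4 and 10 counts in IVS_diosmin libraries, against 2 and 12 counts in IVS libraries. These counts are close to the 3 counts taken as the limit of detection, and replicate 2 was the higher library in both groups. The summed counts were 14 in each group, a ratio of 1.09 after scaling (interval 0.481 to 2.46). That interval covers counting error only, and a difference within it was not detectable at this depth. Replicate 2 exceeded replicate 1 by a count ratio of 8.53 (1.90 to 78.4) in IVS and of 2.25 (0.649 to 9.83) in IVS_diosmin. With that spread, group differences outside the interval could also be missed. Fitted without a filter on low counts, the log2 fold change was -0.07 ± 1.23 (SE, edgeR adjusted p = 0.995).

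In a list of 20 adipocyte identity genes, 13 had enough counts to be tested. Among those with low counts were Adig, a small protein of fat cells, with 8 and 14 counts with diosmin and 22 and 15 in IVS, and the adipocyte transcription factor gene Cebpa, with 14 and 22 counts with diosmin and 23 and 37 in IVS. Others of the list were near or at the limit of detection. Lep, the satiety hormone leptin, had 0 counts in both IVS_diosmin libraries and 1 and 0 counts in IVS replicates 1 and 2, where 3 counts correspond to 0.172 to 0.244 CPM. Retn, the adipocyte hormone resistin, had 6 and 10 counts with diosmin and 2 and 10 counts in IVS. The uncoupling protein of brown fat, Ucp1, had 0 counts in all 4 libraries.

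Regulators of droplet growth stood farther apart between the groups. Cidec encodes a protein that joins droplets and lets the larger take up lipid from the smaller, in white fat above all (chromosome 6, 113424634 to 113435760, minus strand). It had 1 and 9 counts (0.0771 and 0.625 CPM) in IVS_diosmin libraries, against 29 and 59 counts (1.66 and 4.79 CPM) in IVS libraries. Both IVS_diosmin libraries were below both IVS libraries, and replicate 2 was again higher in each group. Over summed counts the ratio was 0.124 (interval 0.0573 to 0.238, which covers counting error only and leaves out the spread between libraries). A log2 fold change of -3.12 ± 0.85 (SE, 95% interval -4.97 to -1.27) missed the threshold (adjusted p = 0.0760). It ran from -5.23 to -2.19 when 1 library was left out in turn, and the adjusted p from 0.00115 to 0.557 over 8 alternatives, with DESeq2 giving an unadjusted p = 0.00069 and no adjusted value. It passed with no filter on low counts (0.00115), without IVS replicate 1 (0.0318) and without IVS_diosmin replicate 2 (0.04997).

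Pparg encodes the nuclear receptor that drives adipocyte differentiation and is also made in capillary endothelium and macrophages (chromosome 6, 115360951 to 115490399, plus strand). Its level was 3.24 and 1.46 CPM in IVS_diosmin libraries, against 5.66 and 11.3 CPM in IVS libraries. The groups did not overlap, and the replicates ran in opposite order: replicate 1 was higher in IVS_diosmin and replicate 2 in IVS. The replicate ratios were 0.450 (0.253 to 0.778) in IVS_diosmin and 2.00 (1.53 to 2.61) in IVS, and the ratio between groups over summed counts was 0.288 (0.215 to 0.382). The interval of that last ratio covers counting error only and leaves out the spread between libraries. The log2 fold change was -1.85 ± 0.47 (SE, 95% interval -2.87 to -0.82), larger than either replicate difference. It missed the threshold in edgeR (adjusted p = 0.0599) and passed it in DESeq2 (0.0151), with no filter on low counts (0.000347) and without IVS replicate 1 (0.0204). Over 9 alternatives the adjusted p ranged from 0.000347 to 0.435, the highest without IVS replicate 2, where the log2 fold change was -1.28. Markers of endothelium were lower in the same libraries: 8 of them (Pecam1, Cdh5, Kdr, Tek, Erg, Esam, Emcn and Cldn5) summed to 188 and 180 CPM with diosmin, against 397 and 383 CPM in IVS. Of these 8, 5 were called lower, beside 1.78% of all tested genes. For all 8, both IVS_diosmin libraries lay below both IVS libraries, beside 24.1% of all tested genes. The 8 macrophage markers summed to 23.9 and 33.4 CPM with diosmin and 23.8 and 44.2 CPM in IVS, with Trem2 at 0 in IVS_diosmin replicate 1 and IVS replicate 1 and Cd14 at 0 in IVS_diosmin replicate 1. Their part in the level of Pparg was not tested.

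Cidec and Pparg differed in their order over the libraries. Cidec was lowest in IVS_diosmin replicate 1 and Pparg in IVS_diosmin replicate 2. Across the 4 libraries Cfd was the member nearest to Adipoq (root mean square distance of centred log2 values 0.53), and Pparg the farthest (1.17). Measured the same way over all tested genes, the 5 nearest to Adipoq were Fam107b (0.14), 4930524O07Rik (0.16), Mag (0.19), Gas7 (0.20) and Rassf2 (0.20). Mag, a myelin protein, was at 0 and 1.53 CPM with diosmin and 0.572 and 1.79 CPM in IVS. With 4 libraries of one tissue, such likeness is a description only.

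**Figure D2:**
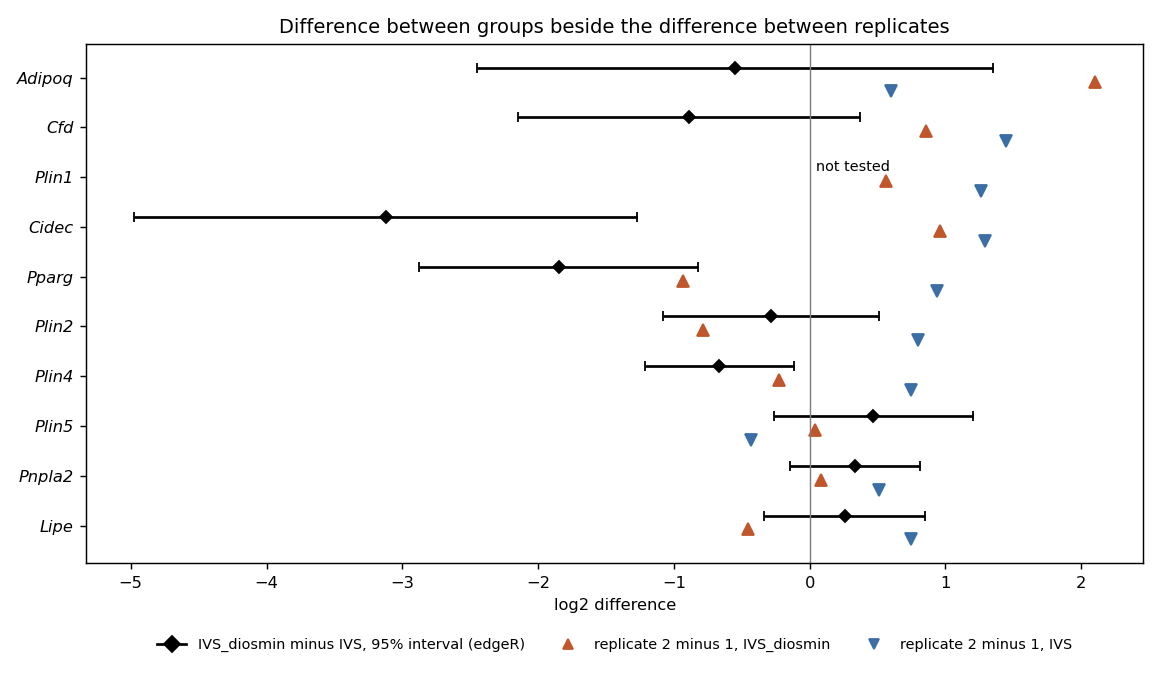
Log2 differences (horizontal axis) for each gene: diamonds are IVS_diosmin minus IVS from edgeR with the 95% interval, and triangles are replicate 2 minus replicate 1 within IVS_diosmin (pointing up) and within IVS (pointing down) on log2(CPM + 0.5). The 0.5 CPM was added for the triangles only. The group difference exceeds both replicate differences for Cidec and Pparg, that of Plin5 (0.47) is about as large as its IVS replicate difference (0.44, or 0.48 without the added value), and the intervals of Cidec, Pparg and Plin4 lie below 0; Plin1 was not tested.

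Set beside the replicates, most group differences were small. The larger of both replicate differences, on log2(CPM + 0.5), was 2.101 for Adipoq, 1.45 for Cfd, 1.29 for Cidec and 1.26 for Plin1, and it lay between 0.44 and 0.94 for the other members. The median over all tested genes was 0.30 in IVS_diosmin and 0.29 in IVS. All 10 members lay above that median in IVS and 7 of 10 in IVS_diosmin. In 2 of the 9 tested genes, Cidec and Pparg, the fold change between groups was larger than both replicate differences with and without the added 0.5 CPM. For Cidec the margin was small without it (3.12 between groups, against 3.02 between the IVS_diosmin replicates). Plin5 was at the border, with 0.47 between groups against 0.44 between the IVS replicates with the added value and 0.48 without it. In IVS, replicate 2 was the higher library for 9 of the 10 genes, the exception being Plin5. The nerve marker Pmp22 stood at 22.4 and 37.8 CPM in IVS_diosmin replicates 1 and 2, against 11.2 and 104 CPM in IVS replicates 1 and 2, so the same library was the highest. The part of nerve or surrounding tissue in these genes was not tested.

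Of the perilipins, Plin4 was by far the most abundant. Per kb of exon, Plin4 took 83.0% and 81.5% of the summed perilipin level in IVS_diosmin libraries, against 86.9% and 86.7% in IVS libraries. Plin4 encodes the perilipin that coats new, small droplets (chromosome 17, 56100591 to 56109803, minus strand). Its level was 311 and 266 CPM in IVS_diosmin libraries, against 342 and 575 CPM in IVS libraries. IVS replicate 2 was well above the other 3 libraries, and IVS replicate 1 was close to IVS_diosmin replicate 1. On the log2 scale the fold change was -0.67 ± 0.25 (SE, 95% interval -1.22 to -0.12, adjusted p = 0.194), smaller than the replicate difference of 0.75 in IVS. Without IVS replicate 2 it was -0.25 (adjusted p = 0.800), and over 9 alternatives the adjusted p ran from 0.0488, with no filter on low counts, to 0.800. In its longest protein-coding transcript 17.4% of 50-base words occur more than once, so reads inside its repeats could fail to align uniquely, which was not tested. Its exons share 17 bases with Hdgfl2 on the opposite strand, 0.294% of its exon bases.

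Plin2 encodes the perilipin found on droplets of nearly all cells (chromosome 4, 86648386 to 86670060, minus strand). It stood at 10.9 and 6.11 CPM in IVS_diosmin libraries and at 7.43 and 13.3 CPM in IVS libraries. The groups overlapped, and replicates differed by count ratios of 0.562 (0.426 to 0.739) in IVS_diosmin and 1.79 (1.42 to 2.27) in IVS. Its fitted log2 fold change was -0.28 ± 0.36 (SE, 95% interval -1.08 to 0.51, adjusted p = 0.775), and it turned to 0.18 without IVS replicate 2 and to 0.063 without IVS_diosmin replicate 2.

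Plin5 encodes the perilipin of oxidative tissues that tethers droplets to mitochondria (chromosome 17, 56111601 to 56117596, minus strand), and lies next to Plin4. It had 6.94 and 7.15 CPM in IVS_diosmin libraries, against 5.89 and 4.23 CPM in IVS libraries. Both IVS_diosmin libraries were above both IVS libraries and differed from each other by a count ratio of 1.03 (0.769 to 1.38), within counting error. On the log2 scale the fold change was 0.47 ± 0.34 (SE, 95% interval -0.26 to 1.20, adjusted p = 0.541), and it kept its sign in all 9 alternatives (0.25 to 0.73). Plin5 took 5.12% and 6.06% of the summed perilipin level per kb with diosmin, against 4.14% and 1.76% in IVS. Markers of slow fibres, which are rich in mitochondria, were higher in the same libraries, with 8 of them (Myh7, Tnnt1, Tnni1, Tnnc1, Myl2, Myl3, Atp2a2 and Myh7b) summing to 3494 and 1381 CPM with diosmin and 45.3 and 47.9 CPM in IVS. Their part in the level of Plin5 was not tested.

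**Figure D3:**
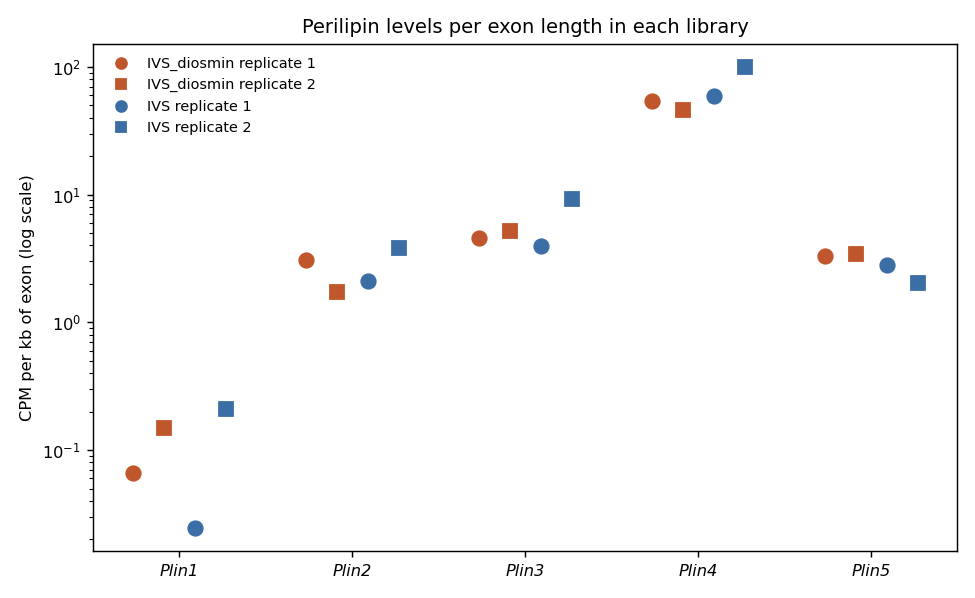
CPM per kb of exon (log axis) of the 5 perilipin genes in each library, with IVS_diosmin at the left of each group of points. Plin4 lies between 46.1 and 99.5 and Plin1 between 0.0246 and 0.210, and Plin2, Plin3 and Plin5 lie between them.

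Neither lipase gene passed the threshold. Pnpla2 encodes adipose triglyceride lipase, which makes the first cut in stored triglyceride (chromosome 7, 141455198 to 141460743, plus strand). It had 128 and 135 CPM in IVS_diosmin libraries, against 86.1 and 123 CPM in IVS libraries. The IVS_diosmin libraries were both higher, with IVS replicate 2 only slightly below them. The difference on the log2 scale was 0.33 ± 0.22 (SE, 95% interval -0.15 to 0.81, adjusted p = 0.498), less than the replicate difference of 0.51 in IVS. It stayed above 0 in all 9 alternatives (0.09 to 0.61).

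Lipe encodes hormone-sensitive lipase, which acts on diglyceride (chromosome 7, 25379527 to 25398710, minus strand). Its values of 38.2 and 27.8 CPM in IVS_diosmin libraries and 20.5 and 34.9 CPM in IVS libraries overlapped. The fitted log2 fold change was 0.26 ± 0.27 (SE, 95% interval -0.34 to 0.85, adjusted p = 0.711), and -0.083 without IVS replicate 1. Its exons share 918 bases (15.6%) with 4732471J01Rik on the opposite strand, which had 112 and 87 counts with diosmin and 95 and 112 in IVS, so part of the count of Lipe cannot be assigned without strand. Per kb, Pnpla2 exceeded Lipe 6.51 and 9.50 times in IVS_diosmin libraries and 8.17 and 6.88 times in IVS libraries.

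Ordered by mean CPM per kb of exon over the 4 libraries, the members ran from Plin4 (64.7) over Pnpla2 (39.1), Cfd (12.8), Lipe (5.16), Plin5 (2.90), Plin2 (2.69), Pparg (1.83), Adipoq (1.29) and Cidec (0.964) to Plin1 (0.113). The lowest library of Plin4 (46.1) was just above the highest of Pnpla2 (44.8), and that of Pnpla2 (28.5) above the highest of Cfd (24.8). Cfd and Lipe overlapped in range, as did every neighbouring pair from Plin5 down. Within IVS alone the order of the means differed below Lipe: Pparg (2.87) was above Plin5 (2.42) and Cidec (1.74) above Adipoq (1.55). These lengths sum all annotated exons, so genes with long alternative ends are placed somewhat too low.

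Around the members, 5 lists of lipid genes were read from the same fit. Of 78 listed genes outside the members, 64 were tested, 1 rose and 5 fell, which is 9.38% of those tested beside 2.96% of all tested genes. Without IVS_diosmin replicate 1 the log2 fold changes of the genes that fell were -1.47 (Cd36), -1.36 (Fabp4), -1.30 (Cav1), -1.29 (Cavin1) and -1.46 (Mgll). That of the gene that rose, Acsl1, was 0.81. The members of the lists that changed are carriers, caveola proteins and enzymes of fatty acid handling. Over all tested genes 1.17% were called higher and 1.78% lower, for comparison with each list below. The lists were chosen with earlier results of these data known, so the share of 9.38% cannot be read as an excess in lipid genes.

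In the list of adipocyte identity genes 2 of 13 tested fell, Cd36 and Fabp4, while 0 rose. The median log2 fold change was -0.45. Both genes are fatty acid carriers, and both are made in capillary endothelium as well as in fat. Cd36 stood at 68.8 and 61.5 CPM with diosmin, against 171 and 170 CPM in IVS (log2 fold change -1.39 ± 0.20, SE, edgeR adjusted p = 0.00440). Fabp4 stood at 215 and 178 CPM with diosmin, against 412 and 503 CPM in IVS (log2 fold change -1.22 ± 0.22, SE, edgeR adjusted p = 0.0121). In both genes the groups lay well apart, yet Cd36 missed the threshold without IVS_diosmin replicate 1 (edgeR adjusted p = 0.0814, in a range of 2.84e-08 to 0.0814 over 9 alternatives). Fabp4 missed it without IVS replicate 2, IVS_diosmin replicate 1 or IVS_diosmin replicate 2 (0.116, 0.124 and 0.0684, in a range of 4.21e-06 to 0.124). The log2 fold change stayed between -1.36 and -1.07 for Fabp4 and between -1.47 and -1.32 for Cd36. Of the 13 fitted values of the list, 10 were below 0 and 3 above 0. Car3 rose without passing, at 1238 and 1544 CPM with diosmin against 451 and 180 CPM in IVS (log2 fold change 2.14, edgeR adjusted p = 0.0506). DESeq2 called 3 genes of the list, 2 lower and 1 higher, beside 4.53% of all tested genes. Several genes of that list, such as Slc2a4, Lpl, Cd36, Car3 and Gpd1, are also expressed in muscle fibres, so the list is not a measure of fat cells alone. Endothelial markers fell in the same libraries, as given for Pparg, and their part in the level of Cd36 and Fabp4 was not tested.

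Of the genes of droplet structure 2 of 14 tested were called lower, beside 1.78% of all tested genes. These were Cav1 and Cavin1, which build the membrane pits called caveolae in adipocytes and endothelium. No other gene of the list passed the threshold, and Plin3, Bscl2, Fitm1, Fitm2 and Ldah were among those that did not. Cav1 had 68.8 and 95.7 CPM with diosmin, against 246 and 224 CPM in IVS (log2 fold change -1.52, edgeR adjusted p = 0.00457). Cavin1 had 56.4 and 63.4 CPM with diosmin, against 157 and 153 CPM in IVS, a log2 fold change of -1.37 (edgeR adjusted p = 0.00445). Both missed the threshold without IVS_diosmin replicate 1 (0.116 and 0.108), the highest of ranges that began at 3.27e-09 and 6.33e-08. Plin3, the perilipin that moves between cytosol and droplets, stood at 17.3 and 19.6 CPM with diosmin and 14.9 and 35.02 CPM in IVS (adjusted p = 0.624). The median of the list was -0.29. Endothelial markers fell in the same libraries, as given for Pparg, and their part in the level of Cav1 and Cavin1 was not tested.

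Of the lipolysis regulators 1 of 11 tested fell, Mgll, the lipase of monoglycerides and the final enzyme of the pathway. It had 31.1 and 21.2 CPM with diosmin, against 53.0 and 64.0 CPM in IVS. The groups lay well apart (log2 fold change -1.16 ± 0.23, SE, edgeR adjusted p = 0.0232), but the call was lost with 3 of the 4 libraries left out singly, all but IVS replicate 1. Its edgeR adjusted p ranged from 3.98e-05 to 0.176 over 9 alternatives, while the log2 fold change stayed between -1.46 and -0.93. Abhd5, the activator of the Pnpla2 lipase, had 12.9 and 18.1 CPM with diosmin and 15.2 and 11.8 CPM in IVS. G0s2, its inhibitor, had 2.70 and 3.54 CPM with diosmin and 3.60 and 0.406 CPM in IVS, with IVS replicate 2 low. Neither passed (edgeR adjusted p = 0.784 and 0.776), and the median of the list was -0.09.

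Of triglyceride synthesis genes 7 of 12 tested had a log2 fold change above 0 and 5 below 0, with a median of 0.20, beside 49.5% of all tested genes below 0. No gene of the 12 passed the threshold in edgeR. At an unadjusted edgeR p under 0.05, 4 were higher and 0 lower, beside 7.91% and 8.91% of all tested genes. DESeq2 called 1 of the 12, beside 4.53% of all tested genes. The smallest p belonged to Dgat2, which adds the last fatty acid to triglyceride. It had 11.4 and 7.43 CPM with diosmin, against 3.26 and 3.90 CPM in IVS (log2 fold change 1.40 ± 0.35, SE, edgeR adjusted p = 0.0540). Next was Srebf1, a regulator of lipid synthesis genes, with 22.5 and 35.8 CPM with diosmin against 17.7 and 16.3 CPM in IVS (log2 fold change 0.77, edgeR adjusted p = 0.128). Of PPAR targets in muscle 1 of 15 tested rose, Acsl1, which activates fatty acids and stood at 124 and 95.2 CPM with diosmin and 55.8 and 53.0 CPM in IVS (log2 fold change 1.01, edgeR adjusted p = 0.0262). That call was lost without any library but IVS_diosmin replicate 2 (edgeR adjusted p 0.000509 to 0.216 over 9 alternatives), with a log2 fold change between 0.81 and 1.17. The median of the list was 0.32.

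**Figure D4:**
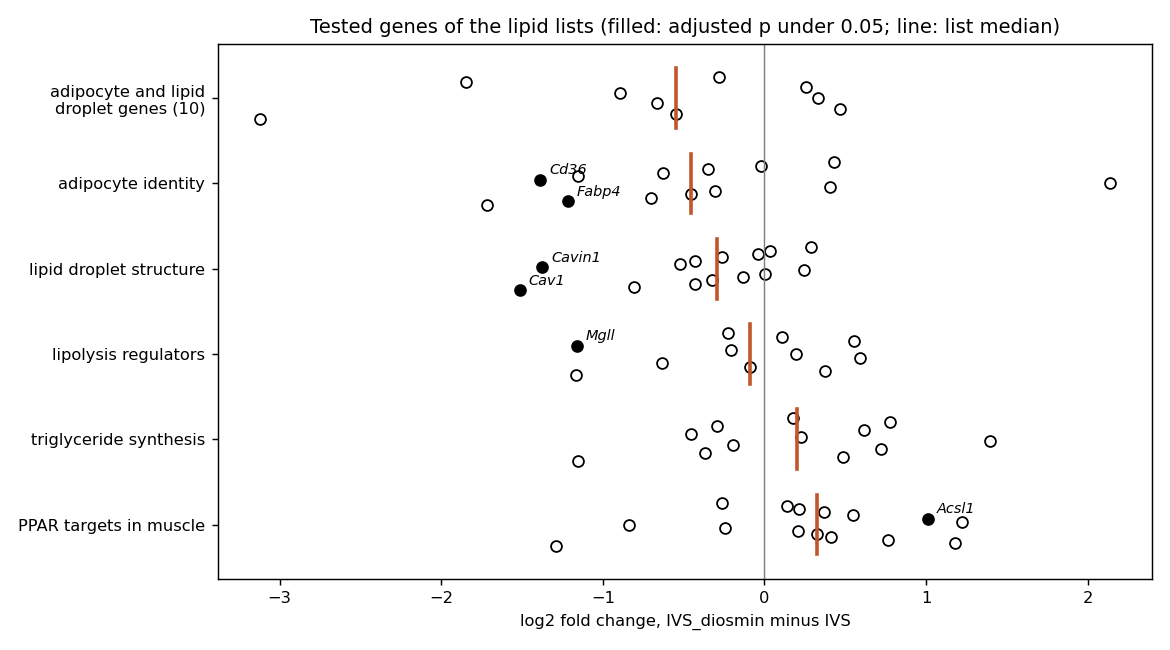
Log2 fold change of IVS_diosmin minus IVS (horizontal axis) for each tested gene of the 10 members and of the 5 other lipid lists, filled where the edgeR adjusted p was under 0.05, with a line at the median of each list. No member is filled, Cd36, Fabp4, Cavin1, Cav1 and Mgll are filled below 0, and Acsl1 is filled above 0.

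Markers of other cells were read beside these genes. Fibro-adipogenic progenitors, the stromal cells from which fat cells in muscle arise, had 8 markers summing to 153 and 145 CPM with diosmin and 121 and 213 CPM in IVS, so the groups overlapped. Of these 8, only Cd34, also an endothelial gene, passed the threshold, and it was lower. Over all tested genes, 1.78% were called lower and 1.17% higher. Pi16 went the other way without passing, at 6.63 and 5.55 CPM with diosmin against 1.26 and 2.68 CPM in IVS (log2 fold change 1.65, edgeR adjusted p = 0.0731). Of the 8 fitted values, 4 were above 0 and 4 below 0.

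**Figure D5:**
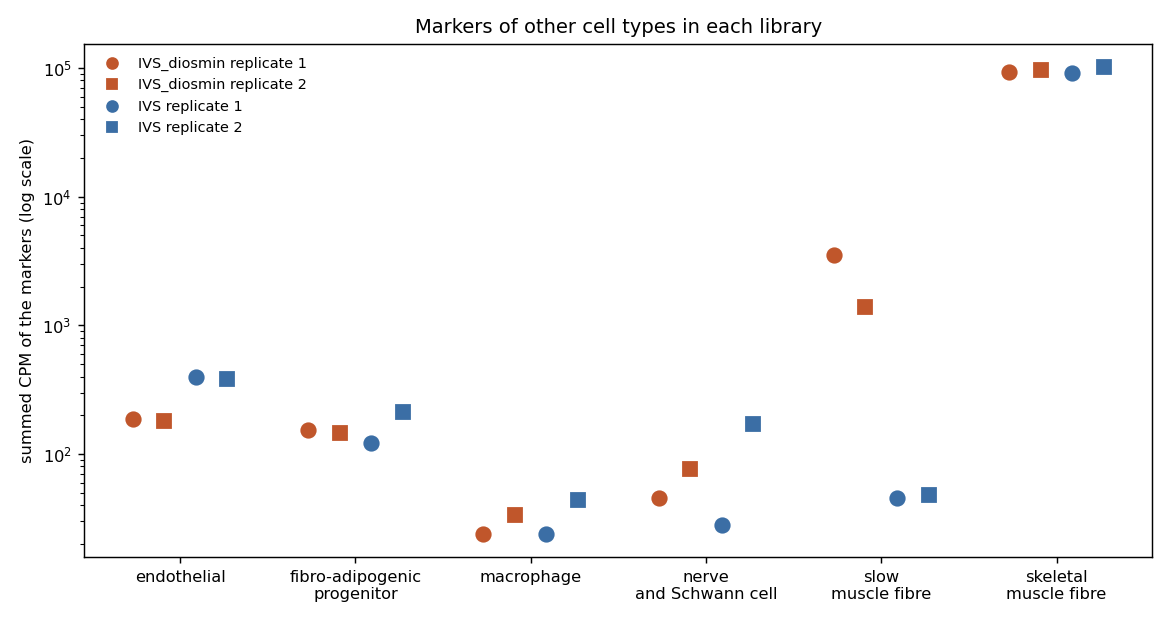
Summed CPM (log axis) of the markers of 6 cell types in each library, with IVS_diosmin at the left of each group of points. Endothelial sums are 188 and 180 with diosmin and 397 and 383 in IVS, slow fibre sums are 3494 and 1381 with diosmin and 45.3 and 47.9 in IVS, and the nerve sum is highest in IVS replicate 2 (171).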

How the data were processed

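Each deposited file gives whole-number read counts of 1 library over genes, not normalised, plus 5 summary lines of HTSeq, which stayed out of library sizes and tests. The submitters' processing notes list HISAT2 2.1.0, HTSeq and mm10. The strand setting and annotation release are not given in the sources used here. Symbols, positions and exon lengths were taken from the GENCODE M21 annotation of mm10 (55141 identifiers matched without version), and promoter sequences from RefSeq on GRCm38.p6.

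The fit used edgeR 4.0.16 under R 4.3.3: filterByExpr, TMM scaling, a robust quasi-likelihood fit of IVS_diosmin minus IVS and a 2-sided test with Benjamini-Hochberg adjustment over 13533 genes at 0.05. Adjusted p-values are from this test unless DESeq2 (1.42.0) is named. Standard errors are the log2 fold change over the square root of F. The steps were checked on simulated data with large changes in well-counted genes only. That check does not cover members with low counts or small changes. For a single gene, exact permutation of 2 and 2 libraries gives p = 0.333 at the lowest. The members and gene lists were chosen with earlier results of these data known. Outside the members, each list's called genes were named, up to 4, or the 2 with the smallest p. A few genes beside them were chosen after their values were seen (Plin3, Abhd5, G0s2, Lep, Retn, Ucp1, Adig, Cebpa, Car3 and Pi16). From the marker lists 1 gene was left out and is not reported here.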

Additional observations from a re-analysis of the deposited data

How the results depend on the processing

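The count of changed genes over the whole table, 400, was 919 with no filter on low counts, 613 with DESeq2, 93 with the replicate number as a block, and 38 to 366 with 1 library left out (38 without IVS_diosmin replicate 1, 98 without IVS replicate 2, 266 without IVS_diosmin replicate 2). The number of members past the threshold, 0, was 3 with no filter (Plin4, Pparg and Cidec), 1 with DESeq2 (Pparg), 0 with the replicate block, and 0 to 3 with 1 library left out. The number over the 5 other lipid lists, 6, was 13 with no filter, 3 with the replicate block (Fabp4, Mgll and Acsl1 missed the threshold there, at edgeR adjusted p 0.0709, 0.115 and 0.0889), and 0 to 8 with 1 library left out. Other scalings (RLE, upper quartile) kept every count within 1.5 times. With 1 library left out, the log2 fold change of Adipoq ran from -3.17 to 0.31 (0.31 without IVS_diosmin replicate 1) and that of Plin2 from -0.75 to 0.18, above 0 without IVS replicate 2 and without IVS_diosmin replicate 2 (0.063). It ran from -1.47 to 0.028 for Cfd (0.028 without IVS replicate 2) and from -0.083 to 0.68 for Lipe (-0.083 without IVS replicate 1). These fits hold fewer samples, and their lone library was taken to be as variable as the other group. Otherwise the cause was not tested. The samples share only a replicate number and no stated pairing: replicate differences in both groups had a correlation of -0.0014 across tested genes. Depth limits Plin1, Adipoq and Cidec, with 1 to 59 counts per library.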

Other observations

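Of 6 genes of brown adipocytes, 2 had enough counts to be tested, and neither passed the threshold. Cox7a1, a subunit of cytochrome c oxidase that muscle also makes, stood at 125 and 91.4 CPM with diosmin and at 154 and 171 CPM in IVS. Cidea, a droplet protein and relative of Cidec, had 14 and 8 counts with diosmin and 0 and 6 counts in IVS replicates 1 and 2. Elovl3, a fatty acid elongase, had 3 and 8 counts with diosmin and 10 and 10 in IVS. Of the other lipid genes, Car3, a carbonic anhydrase abundant in both fat and slow fibres, stood at 1238 and 1544 CPM with diosmin and at 451 and 180 CPM in IVS (log2 fold change 2.14, edgeR adjusted p = 0.0506). Ces1d, a carboxylesterase of adipocytes, stood at 11.5 and 24.6 CPM with diosmin and at 34.4 and 47.0 CPM in IVS (log2 fold change -1.17, edgeR adjusted p = 0.115). The genes named here were chosen after their values were seen.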
